A study of Arabidopsis thaliana with 4 samples.

Results

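The genes described here are 39 Arabidopsis thaliana loci that drive DNA replication and mitosis: cyclins, cyclin-dependent kinases (CDKs) with their CKS partners, the MCM helicase, PCNA, enzymes of deoxyribonucleotide synthesis, and proteins of the spindle, the mitotic checkpoint and the new cell plate. They were chosen from a list of loci by known role, with no cut on their levels, and the core histones were kept apart. All 39 were among the 20511 nuclear genes of the matrix. By role, 16 belong to S-phase entry and DNA replication, 20 to G2 phase and mitosis (G2/M), and 3 are the core kinase CDKA;1 (AT3G48750) and its partners CKS1 (AT2G27960) and CKS2 (AT2G27970).

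Cells came from root tips of plants mutant in all 4 of the transcription factor genes LBD6, LBD36, LBD12 and LBD15, here called lbd_quad, and of wild-type (WT) plants. Seedlings of both genotypes were 7 days old when the very tip of the root was cut off, and the regenerating tips were taken 16 h later. Protoplasts, cells freed of their walls, were sequenced as droplet libraries of 3′ transcript ends, with 2 libraries of each genotype. How many plants went into a library was not stated, nor whether the libraries of a genotype came from separate batches of plants, so p-values measure the spread between libraries, which may be technical. Uncut roots were not analysed here.

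A plant cell enters S phase when D-type cyclins with CDKA;1 relieve the block on E2F factors, which turn on the genes that license origins, unwind DNA and make nucleotides. Entry into mitosis needs A- and B-type cyclins bound to CDKA;1 and to the plant-specific CDKBs, and the MYB3R factors drive a sharp burst of G2/M transcripts. Growth of a cut root tip depends on the divisions that rebuild the stem cell niche, the stem cells around a slowly dividing centre that feed all files of the root.

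The libraries held 846 and 2876 cells for lbd_quad and 1746 and 5061 cells for WT, with 7073293 and 15379536 UMIs (unique transcript molecules) for lbd_quad and 7930684 and 21280667 UMIs for WT. A cell of lbd_quad replicate 1 had a median of 6364 UMIs, and the other 3 libraries had medians of 2090 to 2521.5. Any pair of libraries shared 0 to 3 cell barcodes. LBD12, the targeted gene with the most transcripts, averaged 0.335 and 0.142 UMIs per 10000 UMIs of the cell in lbd_quad libraries, against 2.55 and 1.27 in WT libraries, while LBD15 averaged 0.0558 and 0.0682 in lbd_quad and 0.0426 and 0.0747 in WT. LBD36 and LBD6 had at most 32 and 41 UMIs in a library. Cells were clustered without the 39 genes, without other cell-cycle genes and without histones, and 10 of the 29 clusters took at least 90% of their cells from 1 genotype, 2 from lbd_quad and 8 from WT. Levels below are means over cells in UMIs per 10000, and since 3′ UMIs count molecules, they are not divided by gene length.

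Transcripts of these genes were sparse. Over all cells only 11 of the 39 reached a mean of 0.1 UMIs per 10000 over the 4 libraries, 5 of the 16 replication genes, 3 of the 20 G2/M genes and all 3 core genes, and the other 28 stayed below it. TSO2 (AT3G27060), which encodes the small subunit of ribonucleotide reductase, averaged 0.994 and 1.64 in lbd_quad libraries, against 0.613 and 0.861 in WT libraries, on 6145 UMIs in all. PCNA1 (AT1G07370), a sliding clamp that holds DNA polymerase on its template, averaged 0.373 and 0.476 in lbd_quad and 0.311 and 0.394 in WT. Of these TSO2 was higher in both lbd_quad libraries than in either WT library, while for PCNA1 the genotypes overlapped. The second clamp gene, PCNA2 (AT2G29570), averaged 0.363 and 0.433 in lbd_quad and 0.265 and 0.376 in WT. MCM7 (AT4G02060), a subunit of the replicative helicase, averaged 0.115 and 0.227 in lbd_quad and 0.106 and 0.168 in WT. Both again overlapped, and in each the lowest library was WT replicate 1. The 5 other MCM subunits ran from 0.0257 for MCM6 in WT replicate 1 to 0.143 for MCM2 in WT replicate 2.

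Among the G2/M genes, KNOLLE (AT1G08560), the syntaxin that fuses vesicles into the cell plate, averaged 0.370 and 0.187 in lbd_quad and 0.110 and 0.195 in WT. The Aurora kinase gene AUR1 (AT4G32830) averaged 0.179 and 0.137 in lbd_quad and 0.112 and 0.139 in WT. Its close relative AUR2 (AT2G25880) averaged 0.108 and 0.0540 in lbd_quad and 0.0346 and 0.0810 in WT. Reads of close paralogs can be split between them in counting, so the members of the AUR, PCNA and CKS pairs are uncertain one by one. CDKB1;1 (AT3G54180), a CDK found in plants only, averaged 0.139 and 0.0952 in lbd_quad and 0.144 and 0.113 in WT. All 4 overlapped between genotypes. For KNOLLE, AUR1 and AUR2 the highest library was lbd_quad replicate 1, and for CDKB1;1 it was WT replicate 1. Every one of the 9 A1- and B-type cyclins stayed under 0.1 in every library, the lowest being CYCB2;1 with 66 UMIs in all.

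**Figure D1:**
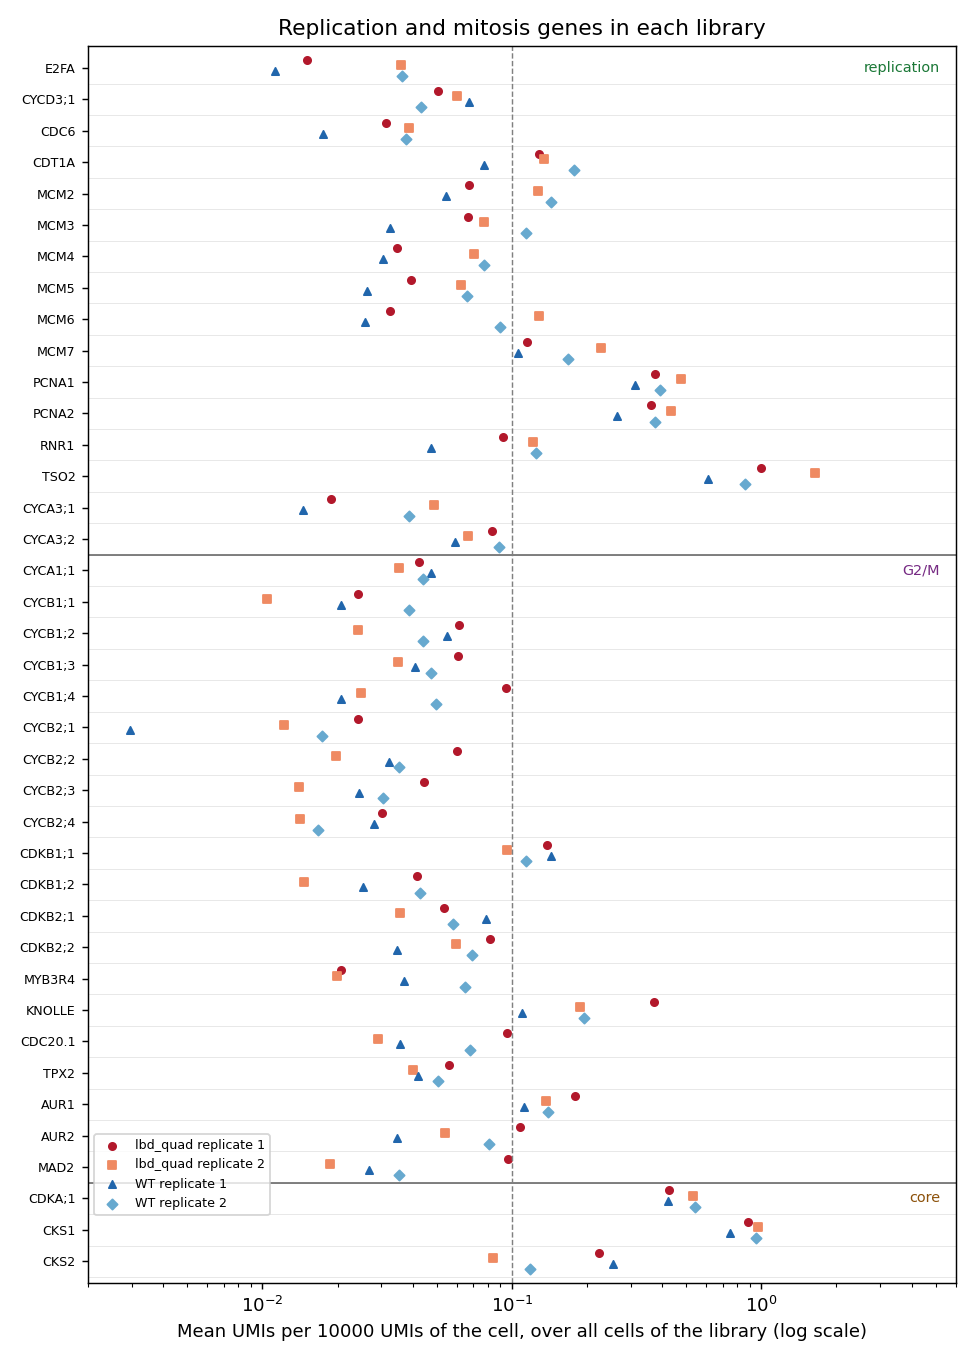
Mean UMIs per 10000 of each of the 39 genes over all cells of a library (log axis), with lbd_quad libraries in red above WT libraries in blue, and the 3 role groups separated by lines. The dashed line marks 0.1; most G2/M genes sit left of it, and TSO2 is the only gene right of it whose lbd_quad libraries both lie above both WT libraries.

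The G2/M genes were packed into few cells. Of the 20 clusters with at least 10 cells in 3 or more libraries, 19 of the 20 G2/M genes had their highest mean in the same one, called here the G2/M cluster because it was picked for that. It held 219 of the cells (2.08%), with 29 and 46 cells in lbd_quad libraries, which is 3.43% and 1.60% of their cells (mean 2.52% ± 1.30, SD, n = 2), and 10 and 134 cells in WT libraries, 0.573% and 2.65% (mean 1.61% ± 1.47, SD, n = 2). These shares overlapped between genotypes. It could not be named from cell type markers, and its leading genes outside the 39 were AT5G16250, ENODL15 and ENODL14, the last 2 coding for early nodulin-like wall proteins. The 20 G2/M genes summed to 31.4 and 15.3 UMIs per 10000 in its lbd_quad cells and 19.8 and 14.9 in its WT cells. In all other cells they summed to 0.628 and 0.647 in lbd_quad and 0.845 and 0.869 in WT. So 39.3% of all G2/M UMIs lay in cells that held 2.62% of all UMIs, and by library that share was 64.1% and 32.4% in lbd_quad and 13.5% and 40.2% in WT.

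Gene by gene, 18 of the 20 G2/M genes were higher inside than outside the G2/M cluster in all 4 libraries, against 9.09% of all genes, and 17 of them at least 2-fold on the mean, against 6.88%. Because the cluster was picked by these genes, the counts describe how they shared it and are no test. The median fold of the 20 was 33.5, against 0.657 for all genes. CYCB1;1 and CYCB2;2, the exceptions, had no UMI in the 10 cells of WT replicate 1 and were higher in the other 3 libraries.

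KNOLLE averaged 8.62 and 3.55 in the G2/M cluster of lbd_quad and 2.55 and 2.90 in that of WT, against 0.0766 and 0.133 in other lbd_quad cells and 0.0962 and 0.122 in other WT cells. Inside and outside did not overlap, and 63.2% of all KNOLLE UMIs came from these 219 cells. CDC20.1 (AT4G33270), an activator of the anaphase-promoting complex, had the largest fold at 87.2, with 2.17 and 0.543 inside in lbd_quad and 4.99 and 0.809 inside in WT. TPX2 (AT1G03780), a spindle assembly factor, averaged 1.28 and 1.41 inside in lbd_quad and 0.717 and 0.821 inside in WT, a fold of 42.9 over other cells. AUR1 averaged 3.09 and 1.52 inside in lbd_quad and 1.37 and 1.13 inside in WT, and AUR2 averaged 2.31 and 1.27 inside in lbd_quad and 1.51 and 1.07 inside in WT. Inside the cluster 6 of the 20 genes, KNOLLE, AUR1 and TPX2 among them, were above WT in both lbd_quad libraries, and 3 were below. Of the 7129 genes with UMIs there in all 4 libraries, 11.5% were above and 17.9% below. The 20 include CYCB1;1 and CYCB2;2, which had no UMI there in WT replicate 1, a library with 10 cells in the cluster. The checkpoint gene MAD2 had a fold of 44.4, and the cyclin genes ran from 10.6 for CYCA1;1 to 72.4 for CYCB1;3. CDC20.1, TPX2, MAD2 and the cyclins were singled out after their values were seen.

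Members of the CDKB family did not share one pattern. CDKB1;2, CDKB2;1 and CDKB2;2 were 16.6-, 14.6- and 18.9-fold higher in the G2/M cluster. CDKB1;1 averaged 0.151 and 0.159 there in lbd_quad and 0.184 and 0.336 there in WT, against 0.138 and 0.0941 in other lbd_quad cells and 0.143 and 0.107 in other WT cells, a fold of 1.72. It was the one G2/M gene with its highest mean in another cluster, an unnamed one in which the pericycle and lateral root markers GATA23 and LBD14 were raised. MYB3R4 (AT5G11510), the transcription factor that activates many G2/M genes, was 9.51-fold higher in the G2/M cluster, with 0.229 and 0.174 inside in lbd_quad and 0.469 and 0.301 inside in WT.

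Within single cells, several of these transcripts occurred together. The median cell of the G2/M cluster had UMIs of 4 of the 20 G2/M genes, and the median of other cells was 0. At least 3 of the genes were found in 165 cells of the cluster (75.3%) and in 145 cells outside it (1.41%), of which 36 were stem cell niche-like. Depth moved with this: cells of the G2/M cluster had a median of 4546 UMIs and others 2510.

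Replication genes were not confined to that cluster. Only TSO2 and MCM6 of the 16 were at least 2-fold higher there and higher in all 4 libraries, and their median fold was 1.32. CKS2, a small subunit that docks CDKs to substrates, was the one core gene raised there, 5.65-fold, while its paralog CKS1 was at 1.12-fold and CDKA;1 at 0.798-fold.

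Core histone transcripts, which accumulate while DNA is copied, ordered the replication genes. The 38 core histone genes, none of them among the 39, summed to 52.2 and 53.3 UMIs per 10000 in lbd_quad and 53.2 and 46.4 in WT. Cells with at least 100 such UMIs per 10000 (1014 cells, 9.63%, called histone-rich) were set against cells with under 50 (called histone-poor), limits chosen after the distribution was seen. Of the 16 replication genes, 13 were higher in histone-rich cells in all 4 libraries, against 10.6% of all genes, and the same 13 were at least 2-fold higher on the mean, against 2.58%. Their median fold was 3.42, and that of all genes 0.913. With the upper limit at 200, a choice made after seeing the data, 11 of the 16 were at least 2-fold higher and higher in all 4 libraries, against 2.15% of all genes. Cells are not replicates here and no test was made.

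TSO2 averaged 2.39 and 8.62 in histone-rich cells of lbd_quad and 3.35 and 4.50 in those of WT, against 0.547 and 0.577 in histone-poor cells of lbd_quad and 0.341 and 0.387 in those of WT. Rich and poor cells did not overlap in TSO2, and histone-rich cells held 58.8% of its UMIs in 11.8% of all UMIs. PCNA2 was 6.27-fold and PCNA1 4.90-fold higher in histone-rich cells, RNR1, the large ribonucleotide reductase subunit, 5.36-fold, and the helicase subunits 2.19-fold (MCM4) to 4.73-fold (MCM6). The S-phase cyclin genes had the largest folds. CYCA3;1 (AT5G43080) averaged 0.106 and 0.281 in histone-rich cells of lbd_quad and 0.121 and 0.288 in those of WT, against 0.00554 and 0.00474 in histone-poor cells of lbd_quad and 0.00619 and 0.00843 in those of WT, a fold of 32.0. CYCA3;2 was 12.8-fold higher. RNR1, the cyclins and the helicase extremes were named after their values were seen.

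The 3 exceptions were CDT1A, E2FA and CYCD3;1, and only CDT1A was not higher on the mean. CDT1A (AT2G31270), which loads the helicase at origins, averaged 0.0321 and 0.221 in histone-rich cells of lbd_quad and 0.0539 and 0.168 in those of WT, and was higher than in histone-poor cells in 2 of 4 libraries. Its fold on the mean was 0.921. E2FA, a transcription factor, and CYCD3;1, the D-type cyclin that answers to cytokinin, were higher in 3 of 4. Their folds on the mean were 2.08 and 2.15, close to the 2.19 of MCM4, on 27 and 71 UMIs in histone-rich cells. The origin licensing gene CDC6 was 3.39-fold higher and higher in all 4.

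G2/M genes did not follow the histones. CDKB1;1 alone of the 20 was higher in histone-rich cells in all 4 libraries, at 1.85-fold, and the median fold of the 20 was 0.514. CYCB2;3 had 2 of its 112 UMIs in histone-rich cells and CDC20.1 had 10 of 224. KNOLLE averaged 0.0535 and 0.123 in histone-rich cells of lbd_quad and 0.0549 and 0.119 in those of WT, and was lower than in histone-poor cells in every library. CDKA;1 was also lower in all 4, at 0.822-fold, and CKS2 was 1.51-fold higher.

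**Figure D2:**
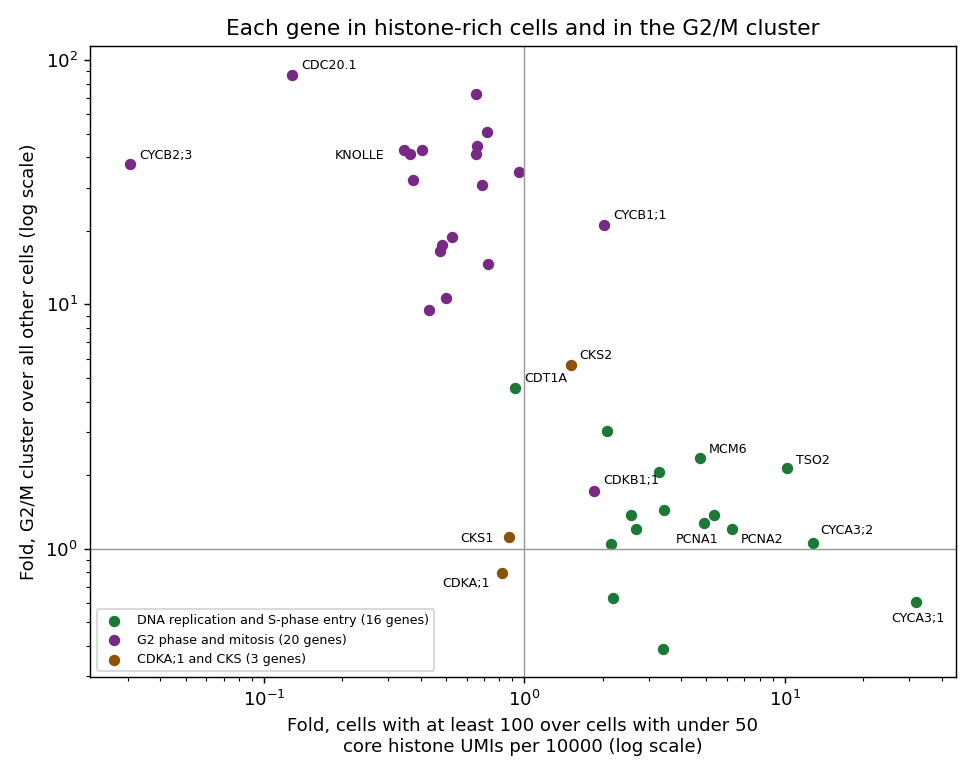
Each point is a gene, with its fold in histone-rich over histone-poor cells across and its fold in the G2/M cluster over all other cells upward (means over 4 libraries, log axes, lines at 1). Replication genes in green spread to the right and G2/M genes in purple to the top left, with the exceptions of CYCB1;1 at the top right, CDKB1;1 among the replication genes, and CDT1A left of the other replication genes.

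Taking the cells in 5 steps of histone level, the summed replication genes grew step by step in each library. In cells with under 25 histone UMIs per 10000 they summed to 0.962 and 1.66 in lbd_quad and 0.858 and 1.41 in WT. In cells with 200 or more they summed to 6.81 and 18.1 in lbd_quad and 10.1 and 12.7 in WT. The G2/M sum was lowest in the top step in all 4 libraries, at 0.525 and 0.585 in lbd_quad and 0.583 and 0.534 in WT. Median depth in that step was 4978 and 6688 UMIs per cell in lbd_quad and 2562 and 4206 in WT, and in the lowest step 8215 and 3127 in lbd_quad and 3856 and 2415 in WT.

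**Figure D3:**
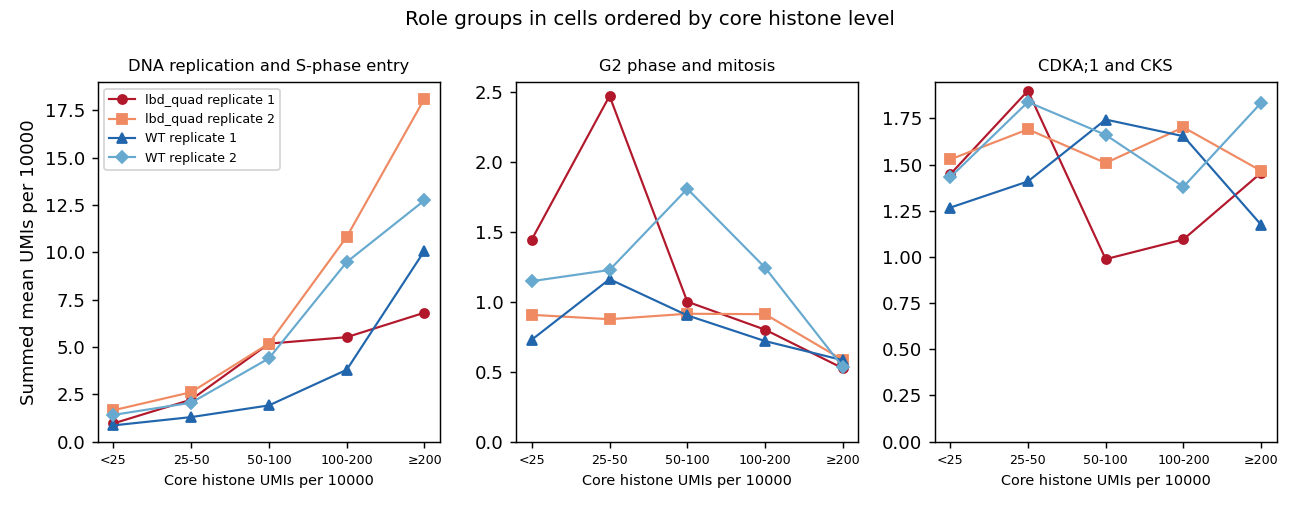
Summed mean UMIs per 10000 of the 16 replication, 20 G2/M and 3 core genes in cells grouped by core histone UMIs per 10000, with a line for each library. The replication sum, TSO2 included, climbs with the histones in all 4 libraries, G2/M genes end lowest at 200 or more, and core genes show no common course.

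Among marker-defined cell types, stem cell niche-like cells had the highest replication sum. It was 9.54 and 13.2 in lbd_quad, the first from 5 cells only, and 4.07 and 7.15 in WT. Some single clusters of other classes lay higher in WT, an endodermis-like one at 9.41 in replicate 2 and a phloem-like one at 5.41 in replicate 1. Niche-like cells had WOX5, PLT3 and BBM raised, but not PLT1, PLT2 or AGL42. The procambium markers HB8 and SHR were raised in them too. Of the 16 replication genes 9 had their highest mean in the niche-like class, among them TSO2, both PCNA genes and 5 of the 6 MCM genes. That mean left out lbd_quad replicate 1, with 5 cells. In WT replicate 1, MCM2, MCM3, MCM4 and CYCA3;1 averaged 0 in the 21 niche-like cells. Another 4, MCM7, RNR1, CDC6 and E2FA, had their highest mean in an endodermis-like cluster. It had raised SCR, EN7 and MGP and the cortex marker CO2, but not the CASP genes or MYB36. It had no cell in WT replicate 1, so the 2 clusters were averaged over different libraries. CYCD3;1 was highest in the largest cortex-like cluster at 0.206 ± 0.0353 (SD, n = 4 libraries). Endodermis-like cells as a whole summed to 2.07 and 6.14 in lbd_quad and 1.62 and 3.54 in WT, and cortex-like cells to 1.75 and 2.61 in lbd_quad and 1.67 and 3.88 in WT. On the mean over libraries the lowest replication sum was that of root cap-like cells, with 0.763 and 0.734 in lbd_quad and 0.334 and 1.72 in WT. Hair-cell epidermis-like cells were lower in WT replicate 2, at 1.04, and had 0 in the 3 cells of lbd_quad replicate 1.

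The G2/M sum was low in every named class but the niche. Niche-like cells had 4.39 and 1.11 in lbd_quad and 7.69 and 1.72 in WT, where 5 and 21 cells stand behind the high values of the replicate 1 libraries. In cortex-, endodermis-, phloem-, xylem-, hair-cell epidermis- and root cap-like cells it lay between 0 and 1.24 in all 4 libraries. Compared with all other cells, 5 of the 20 G2/M genes and 6 of the 16 replication genes were at least 2-fold higher on the mean in niche-like cells and higher in all 4 libraries, against 6.38% of all genes. CYCA1;1 was 11.1-fold, CDKB1;2 7.71-fold and MYB3R4 7.51-fold higher there on the mean. These folds and counts also rest on the 5 and 21 cells of the replicate 1 libraries. CYCA1;1 averaged 0.651 and 0.183 there in lbd_quad and 0.765 and 0.0712 in WT. In WT replicate 2 its other cells averaged 0.0433. MYB3R4 in lbd_quad replicate 2 averaged 0.0305 in niche-like cells and 0.0195 in other cells.

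Of the core genes, CKS2 was highest in the G2/M cluster, at 0.871 ± 0.539 (SD, n = 4 libraries), and the other two peaked elsewhere. CKS1 was highest in an unnamed cluster with raised SUC2, SMXL5 and HB8, genes of phloem and procambium, at 2.83 ± 0.450 (SD, n = 4 libraries). In phloem-like cells it averaged 3.41 and 1.52 in lbd_quad and 2.41 and 2.18 in WT, and in xylem-like cells 2.08 and 2.29 in lbd_quad and 2.55 and 1.97 in WT. In root cap-like cells it averaged 0.102 and 0 in lbd_quad and 0.172 and 0.198 in WT. Vascular classes thus lay above the root cap in every library, without overlap. Over all cells CKS1 averaged 0.882 and 0.966 in lbd_quad and 0.750 and 0.950 in WT, CDKA;1 averaged 0.428 and 0.532 in lbd_quad and 0.423 and 0.541 in WT, and CKS2 averaged 0.223 and 0.0841 in lbd_quad and 0.253 and 0.119 in WT, and all 3 overlapped. CDKA;1 was spread more evenly, from 0.135 ± 0.109 in root cap-like to 0.721 ± 0.206 in xylem-like cells (SD, n = 4 libraries).

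**Figure D4:**
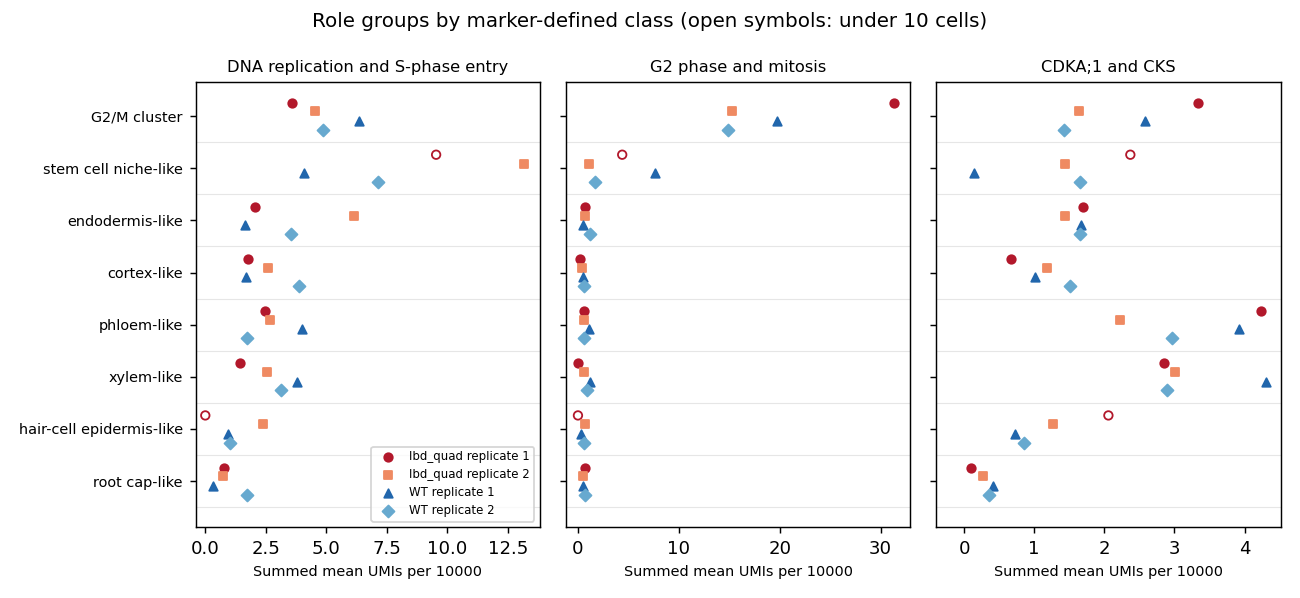
Summed mean UMIs per 10000 of the 3 role groups in the G2/M cluster and in each marker-defined class, with a symbol for each library, lbd_quad in red above WT in blue, and open symbols for fewer than 10 cells. On the mean over libraries, replication genes are highest in stem cell niche-like cells and G2/M genes in the G2/M cluster. Core genes are lowest in root cap-like cells on that mean. In WT replicate 1 the replication sum is higher in the G2/M cluster (6.33) than in niche-like cells (4.07). Its core sum is lower in niche-like cells (0.146) than in root cap-like cells (0.418).

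To find out whether these genes changed in the mutant, the genotypes were compared with limma on log2(UMIs per 10000 + 0.1), with Benjamini-Hochberg adjustment over all genes. Over all cells, 0 of the 11 genes that could be tested passed an adjusted p of 0.05, where 0.389% of all 9511 tested genes did, and 0 of the 11 had an unadjusted p under 0.05. Their log2 differences, lbd_quad over WT, ran from -0.19 to 0.74 with a median of 0.18, against 0.01 for all genes. The median 95% interval reached 0.62 to either side. In simulated data a log2 change of 2 was recovered for 110 of 200 genes over all cells. The simulated noise differed from that of the data, as described under processing, so this does not measure power. Changes could have gone uncalled. In bulk means of this kind, more cells in a phase and more RNA per cell cannot be told apart.

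TSO2 had the smallest p, with a log2 difference of 0.74 (SE 0.33, limma adjusted p = 0.643), and means of 1.32 ± 0.459 in lbd_quad and 0.737 ± 0.176 in WT (SD, n = 2 each). It was the one gene of the 39 with both lbd_quad libraries above both WT libraries, which 20.6% of all genes showed. Its difference was 0.40 without lbd_quad replicate 2 and 1.07 without lbd_quad replicate 1. KNOLLE followed at 0.56 (SE 0.31, limma adjusted p = 0.760), and stood at 0.21 without lbd_quad replicate 1, 0.32 without WT replicate 1 and 0.92 without lbd_quad replicate 2. PCNA2 at 0.25 (SE 0.26), PCNA1 at 0.21 (SE 0.26) and AUR1 at 0.19 (SE 0.23) had limma adjusted p-values of 0.893, 0.911 and 0.910. CKS2 was at -0.19 (SE 0.35) and CDKA;1 at -0.0023 (SE 0.26), with adjusted p-values of 0.945 and 0.999 by limma. Without WT replicate 1, MCM7 and CDT1A stood at -0.01 and -0.26, against 0.18 and 0.06 with all libraries.

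**Figure D5:**
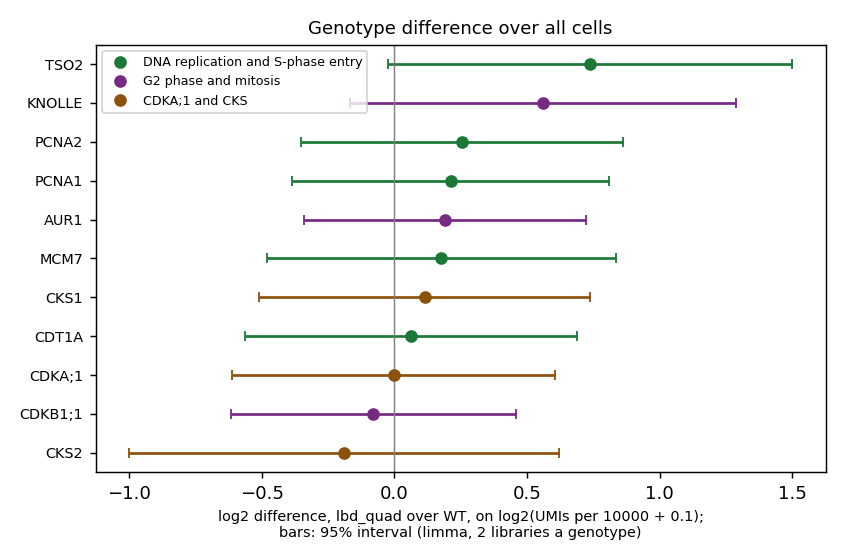
log2 difference of lbd_quad over WT for the 11 genes with a mean of at least 0.1 UMIs per 10000, with bars for 95% intervals from limma on 4 libraries and colours for the role groups. Every interval spans 0, and that of TSO2 starts at -0.02.

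In lbd_quad, 3 of the 39 genes were below WT in both libraries, which 16.1% of all genes showed. They were CYCA1;1, CDKB2;1 and MYB3R4, all under the limit of 0.1. MYB3R4 averaged 0.0206 and 0.0199 in lbd_quad, on 18 and 37 UMIs, and 0.0370 and 0.0646 in WT, on 30 and 116 UMIs. With no limit on low values its log2 difference was -0.32 (SE 0.13, limma adjusted p = 0.630), so this gene did not pass either.

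The higher TSO2 level in lbd_quad was not seen in every set of cells. In histone-poor cells both lbd_quad libraries lay above WT, whereas in histone-rich cells, given above, lbd_quad replicate 1 was the lowest library and replicate 2 the highest. In niche-like cells TSO2 averaged 5.07 and 5.62 in lbd_quad and 1.73 and 1.78 in WT. Without the niche-like cells it averaged 0.969 and 1.48 over all others in lbd_quad and 0.599 and 0.830 in WT, still without overlap. In endodermis-like cells it averaged 0.486 and 3.21 in lbd_quad and 0.813 and 1.25 in WT, which overlapped. Niche-like cells numbered 5 and 113 in lbd_quad and 21 and 165 in WT, and their part in the difference over all cells was not tested beyond this.

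Cortex-, endodermis- and phloem-like cells had at least 20 cells in every library and were compared between genotypes one class at a time. Of the 39 genes, 9 could be tested in cortex-like cells and 0 passed (0.484% of all genes did), 9 in endodermis-like cells and 0 passed (1.41% of all genes), and 12 in phloem-like cells and 0 passed (0% of all genes). Unadjusted p-values under 0.05 also numbered 0 in each class. The lowest adjusted p was that of PCNA1 in endodermis-like cells, which averaged 0.539 and 0.813 in lbd_quad and 0.193 and 0.539 in WT, a log2 difference of 0.82 (SE 0.41, limma adjusted p = 0.336). Without WT replicate 1 it was 0.26 and without WT replicate 2 1.38. PCNA1 had the opposite sign in cortex-like cells, at -0.82 (SE 0.53, limma adjusted p = 0.876). In phloem-like cells it was at -0.69 (SE 0.49, limma adjusted p = 0.975). In cortex-like cells PCNA2 was at -0.79 (SE 0.38, limma adjusted p = 0.685), and -0.52 without WT replicate 2. In simulated data of each class the same log2 change of 2 was recovered for 0 of 200 genes. Here too the simulated noise differed from that of the data, so the power of the class tests was not measured. Changes within a class could have gone uncalled. Whether classes differed in the genotype effect was not tested.

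Of 93 further cell-cycle genes, 90 were in the matrix and 18 could be tested over all cells, and 0 passed the threshold. Their log2 differences ran from -0.63 to 0.40, and the median 95% interval reached 0.61 to either side. The smallest p among those above WT was that of TK1A, a thymidine kinase, with 0.251 and 0.314 in lbd_quad and 0.202 and 0.191 in WT, a log2 difference of 0.36 (SE 0.24, limma adjusted p = 0.820). That difference was 0.25 without lbd_quad replicate 2. Among those below WT it was that of SMR1, a CDK inhibitor, with 0.498 and 0.459 in lbd_quad and 1.09 and 0.572 in WT, a log2 difference of -0.63 (SE 0.33, limma adjusted p = 0.733). Without WT replicate 1 it was -0.22, without WT replicate 2 -1.04, and with equal makeup of clusters -0.16. That last setting kept only the 12 clusters with at least 10 cells in every library, 54.4% of cells on the mean over libraries. Between cells, 10 of the 15 further origin and fork genes were at least 2-fold higher in histone-rich cells and higher in all 4 libraries, among them CDC45 at 9.85-fold, against 2.58% of all genes. Of the 16 spindle, phragmoplast and chromosome genes, 13 were so in the G2/M cluster, among them the phragmoplast kinesin gene HIK at 22.6-fold, against 6.88% of all genes. Over all 90 the counts were 18 in histone-rich cells and 22 in the G2/M cluster. CDT1B, a relative of the replication gene CDT1A, was 39.4-fold higher in the G2/M cluster. CDC45, HIK and CDT1B were picked after their values were seen.

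Replication genes also differed between the libraries of a genotype. In both genotypes the library numbered 2 was above the library numbered 1 for 14 of the 16 replication genes, all 6 MCM genes among them, against 41.5% of all genes. CYCD3;1 and CYCA3;2 were the others. For the G2/M genes this held for 0 of 20, and 5 were lower in the libraries numbered 2 of both genotypes, against 23.2% of all genes. It held for 14 of 16 replication genes within histone-rich cells (35% of all genes), for 12 within histone-poor cells (40.4%) and for 13 without the niche-like cells (40.7%). Niche-like cells were fewer in the replicate 1 libraries, and what set the replicates apart was not tested. The labels call them duplicates and give no batch.

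To set aside the difference in depth, each cell was thinned to 1000 UMIs, which left out 0 and 632 cells of lbd_quad and 0 and 1218 cells of WT as too shallow. A UMI of a replication gene was then found in 18.3% and 20.5% of lbd_quad cells and 12.8% and 18.6% of WT cells, a mean of 19.4% ± 1.49 in lbd_quad and 15.7% ± 4.13 in WT (SD, n = 2 each). The difference was within the spread of the WT libraries. A UMI of a G2/M gene was found in 7.57% and 6.73% of lbd_quad cells and 7.39% and 8.07% of WT cells, and these overlapped. Unthinned, the replication share was 48.1% ± 11.2 in lbd_quad and 31.3% ± 4.50 in WT (SD, n = 2 each). Hair-cell epidermis-like cells, which have left the division zone, gave 0 of 3 cells (exact 95% interval 0% to 70.8%) and 12.5% (2.66% to 32.4%) in lbd_quad and 6.25% (1.73% to 15.2%) and 7.33% (4.33% to 11.5%) in WT for replication genes, at median depths of 6210 and 1392 UMIs in lbd_quad and 2200 and 1347 in WT. For G2/M genes they gave 0 of 3 cells and 8.33% (1.03% to 27%) in lbd_quad and 1.56% (0.0396% to 8.40%) and 4.31% (2.09% to 7.78%) in WT. These Clopper-Pearson intervals cover counting error only. The G2/M share over all cells was thus not above that background in lbd_quad replicate 2, where 2 of 24 hair-cell epidermis-like cells make up the value.

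Cells with a replication UMI more often had a G2/M UMI as well. After thinning to 1000 UMIs, 9.68% and 9.59% of lbd_quad cells and 8.97% and 9.37% of WT cells with a replication UMI also had a G2/M UMI. Among cells without a replication UMI the shares were 7.10% and 5.99% in lbd_quad and 7.16% and 7.77% in WT. The difference was 1.60 to 3.59 percentage points over the 4 libraries, 2.56 to 10.1 points at 2000 UMIs a cell and 7.04 to 17.2 points without thinning, with the same order in all 4 libraries each time. It is given as a description only, and its size moved with depth.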

How the data were processed

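The authors deposited a single matrix of natural log values: per the values themselves, a gene's UMIs were scaled to 10000 UMIs for the cell, raised by 1 and logged. Cell Ranger 7.0.1 and Seurat are named in the submitters' processing notes, and the library kit was version 2 of the 10x 3′ chemistry, per the labels. The genome build, filters on cells and any removal of doublets are not given in the sources used here, so no coordinates or promoter sequences were read and the planned motif search was not made. Of 13844 columns of cells, 10529 matched the 4 samples by name. The other 3315 belong to no sample here and were not used. The exponential of each value, less 1, gave UMIs per 10000. Dividing these by the smallest value above 0 in the cell, taken as 1 UMI, gave back UMIs, 100% of them whole within 0.01. The 67 rows that name no nuclear gene held 0.0286% of UMIs and were left out. The design had foreseen log values, and no count model was used.

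Every cell passed minimums of 500 UMIs and 200 genes. Scrublet in scanpy 1.11.5 marked 1 cell (0.0095%), a rate too low to rely on, and doublets may remain. That cell was removed, so tests used 845 cells of lbd_quad replicate 1. Cells were clustered (Leiden resolution 1, 2000 variable genes, 40 components, 15 neighbours), and a cluster was named from 85 markers of 10 classes when at least 3 were raised 2-fold and found in 10% of its cells. Symbols come from a RefSeq table of assembly TAIR10.1.

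The mean of UMIs per 10000 over the cells of a library was the unit of comparison. All genes whose mean over the libraries reached 0.1 were tested with limma 3.58.1 (R 4.3.3; mean-dependent prior, genotype as the only term) on log2(value + 0.1), with Benjamini-Hochberg adjustment over all genes. This scale understates the change of low genes. Depth per library was 7073293 to 21280667 UMIs. On simulated data with 200 genes changed 4-fold, log2 of 2, the test over all cells recovered 110 with 4 false calls, and made 0 calls where nothing was changed. The simulation shuffled the spreads between libraries among the genes. It also added counting noise to spreads that already held it, so its recovery does not measure the power of the tests.

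Members, gene lists, markers and tests were chosen with earlier results of these data known. Values in every library are given for the 5 members with the smallest p and the 4 with the highest mean in each role group, and of the further pathway genes for the one with the smallest p in each direction, as none passed the threshold. Other genes named were chosen after their values were seen. The alternatives were other low-value filters, pseudocounts, scalings, voom, a replicate block, deeper or equal numbers of cells, equal cluster makeup, other Leiden resolutions, other thinning depths and each library left out in turn. A histone limit of 200 was added after seeing the data.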

Additional observations from a re-analysis of the deposited data

How the results depend on the processing

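None of the 39 genes passed the threshold over all cells or in cortex-, endodermis- or phloem-like cells under any of the 14 or 15 alternatives run for each. The lowest adjusted p over all cells was that of TSO2 with the replicate number as a block, 0.0878, and its log2 difference ran from 0.40 to 1.08 over the 14 alternatives (adjusted p 0.0878 to 1.00). The deviations of same-numbered libraries correlated at 0.515. Whether a number marks a shared batch is not given in the sources used here, so with 2 pairs the block is given as an alternative only. KNOLLE ran from 0.15 to 0.92 and SMR1 from -1.04 to -0.16 over the same 14. Among members that were not called, signs turned as follows. CKS1 was at -0.27 from library sums, -0.30 with voom and -0.13 where only cells with 2000 UMIs or more were kept, and AUR1 at -0.0408 with voom. With equal makeup of clusters PCNA1, PCNA2, CDT1A and MCM7 were at -0.17, -0.17, -0.24 and -0.20. Equal makeup covered only the 12 clusters with at least 10 cells in every library, 54.4% of cells on the mean over libraries. It left out, among others, the niche-like cluster and the endodermis-like cluster with raised SCR and MGP, so it does not reweight all cells. With 1 library left out, CDKA;1 ran from -0.150 to 0.145, CDKB1;1 from -0.224 to 0.0662, CKS1 from -0.0370 to 0.267, CKS2 from -0.594 to 0.215, MCM7 from -0.123 to 0.478 and CDT1A from -0.257 to 0.384. The cause was not tested.

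The number of all genes called moved far more. Over all cells it was 37, and it was 0 with no filter, 19 with a pseudocount of 1, 19 with size factors, 1 from library sums, 0 with voom, 466 with the replicate block, 6 with equal makeup and 150 to 308 with 1 library left out. In cortex-like cells it was 42, and 0 with no filter, 17 with a pseudocount of 1, 25 with size factors, 0 from library sums, 0 with voom, 168 with the block, 0 in cells of at least 2000 UMIs, 11 at resolution 2 and 0 to 118 with 1 library left out. In endodermis-like cells it was 125, and 0 with no filter, 70 with a pseudocount of 0.02, 4 from library sums, 0 with voom, 392 with the block, 21 in cells of at least 2000 UMIs, 81 at resolution 0.5 and 0 to 110 with 1 library left out. In phloem-like cells it was 0, and 175 with the block, 8 with equal numbers of cells, 3 at resolution 0.5 and 0 to 1 with 1 library left out.

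Thinned to 2000 UMIs, the share of cells with a UMI was 29.9% in lbd_quad and 23.0% in WT for replication genes, 11.1% in lbd_quad and 12.8% in WT for G2/M genes, and 25.1% in lbd_quad and 26.5% in WT for core genes. Not thinned, it was 48.1% in lbd_quad and 31.3% in WT, 22.1% in lbd_quad and 18.8% in WT, and 47.0% in lbd_quad and 34.7% in WT for the same 3 groups. With histone-rich cells defined at 200, 11 of 16 replication genes and 1 G2/M gene, against 0 at 100, were at least 2-fold higher and higher in all 4 libraries. At Leiden resolutions 0.5 and 2 the cluster with the highest G2/M sum held 253 and 247 cells and took in all 219 of the G2/M cluster. Depth limits what the means show: 28 of the 39 genes had under 0.1 UMIs per 10000.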
